A study of Mus musculus with 8 samples.

Results

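The mitochondrial respiratory chain genes described here are the nuclear genes for complexes I to V, taken by symbol from a table of RNA levels in mouse chondrocytes. Of 24067 genes in the table, 92 had a symbol beginning with Nduf, Cox4 to Cox8, Uqcr or Atp5, or were Sdha, Sdhb, Sdhc or Sdhd. Of these, 89 averaged 1 FPKM or more across the 8 libraries, as did 11612 genes of the whole table. FPKM is the number of sequenced fragments of a gene, scaled to transcript length and to library size. The genes left out were Cox7a1 at a mean of 0.55 FPKM, Cox7b2 at 0.061 FPKM and Cox8c at 0.022 FPKM, and the lowest gene kept was Cox8b at 1.48 FPKM. By role, 7 of the 89 genes were core subunits, 29 supernumerary subunits and 7 assembly factors of complex I. There were 4 subunits of complex II and 8 of complex III. A further 17 genes were placed with complex IV and 15 with complex V, with Atp5s and Atp5sl beside them. The genes placed with complex IV include Ndufa4, the related gene Ndufa4l2, and Cox7a2l, a factor that joins complexes III and IV.

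The cells were primary articular chondrocytes, which make and maintain joint cartilage, from knee joint surfaces of ICR mice aged 5 days. All groups were grown in 3% oxygen and received 50 nM of a small RNA duplex for 24 h, with harvest 24 h after transfection ended. One group of 4 libraries received a miR-204 mimic and the other group of 4 received the control, miR-Ctrl. The comparison addresses which transcripts differ when miR-204 is supplied from outside, at a dose set by transfection and not by the cells. The labels number the libraries 1 to 4 in each group and do not say whether a number is a separate culture or litter, so p-values cover the spread between these libraries, which may be technical.

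The respiratory chain sits in the inner mitochondrial membrane. Complex I takes electrons from NADH and complex II takes them from succinate, and both pass them to ubiquinone. Complex III hands them on to cytochrome c, complex IV passes them to oxygen, and complex V, the ATP synthase, uses the resulting proton gradient to make ATP. Core subunits carry the redox centres and supernumerary subunits surround and stabilise them, while assembly factors help to build a complex without staying in it. Chondrocytes live in a tissue with little oxygen and are known for drawing most of their ATP from glycolysis. Some subunits are encoded by mitochondrial DNA. The table held no gene under the symbols searched for these subunits, so they were not analysed here.

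A microRNA lowers transcripts that pair with its seed, bases 2 to 8 from the 5′ end, mostly in the 3′ UTR. For each gene the longest 3′ UTR in the annotation was searched for matches to the seed of miR-204-5p. They were AAAGGGAA (8mer), AAAGGGA (7mer-m8), AAGGGAA (7mer-A1) and AAGGGA (6mer). The mature miR-204-5p is shown first, from RefSeq, with its seed in capitals. The 5 stretches of 30 or fewer bases below it hold the only 8mer among the 89 genes, the 3 7mer-m8 matches and the 7mer-A1 match of the assembly factor Ndufaf2, with the match in capitals, on the transcript strand of mm10.
miR-204-5p: uUCCCUUUgucauccuaugccu
Cox5a: tggactttaatAAAGGGAAatgagtttgaa
Cox6a1: ccccaggcaacAAAGGGAccacagcactgg
Ndufa11: tctcttgagttAAAGGGAttgatgcagggc
Sdhc: gaaatctgtagAAAGGGAttcaccatttat
Ndufaf2: ccgtattttggAAGGGAAgagccctcagtg

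The Cox5a match lies at chr9:57532403-57532410 on the plus strand, in exon 5 of 5, at position 132 of a 3′ UTR of 155 bases. It shares 3 bases with an AATAAA word, the usual polyadenylation signal, and ends 16 bases before the annotated end of the transcript. The Cox6a1 match is at chr5:115345810-115345816 on the minus strand, in exon 3 of 3. The Ndufa11 match is at chr17:56721812-56721818 on the plus strand, in exon 3 of 3. In Sdhc the match is at chr1:171128327-171128333 on the minus strand, in exon 6 of 6. The Ndufaf2 match is at chr13:108052793-108052799 on the minus strand, in exon 3 of 3. All 5 matches are in the 3′ UTR.

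Seed matches were sparse in these genes. A 7mer or an 8mer was present in 9 of the 89 genes, or 10.1%, and in 24.0% of the 11192 tested genes with an annotated 3′ UTR. The transcripts were also short, with a median 3′ UTR of 235 bases against 1191 bases over all tested genes. Ndufaf4, Ndufb2, Ndufv1 and Ndufv3 carried the other 7mer-A1 matches, 4 genes had a 6mer at best, and 76 had none. Of the 7mer-A1 genes, Ndufaf2 alone had a log2 fold change below 0, at −0.16. The others were at 0.069, 0.0066, 0.0051 and 0.084, in the order named, and their matches are not shown.

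Promoters were read from RefSeq (GRCm38.p6), as 250 bases before to 50 bases after the annotated start, for 74 of the 89 genes. The promoters of Ndufa3 and Uqcrh are shown because these were the complex I and complex III subunits with the highest log2 fold changes. Capitals mark matches on either strand to AAGATGG (YY1), to ACGTG (core of the hypoxia response element) or to CCGGAAG (ETS family).
Ndufa3, chr7:3617123-3617422, plus strand: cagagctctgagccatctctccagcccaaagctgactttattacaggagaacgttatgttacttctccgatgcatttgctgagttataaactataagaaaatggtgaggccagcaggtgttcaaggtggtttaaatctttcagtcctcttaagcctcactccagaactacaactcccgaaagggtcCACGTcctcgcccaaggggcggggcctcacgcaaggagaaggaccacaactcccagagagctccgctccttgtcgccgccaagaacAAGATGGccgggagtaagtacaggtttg
Uqcrh, chr4:116075021-116075320, minus strand: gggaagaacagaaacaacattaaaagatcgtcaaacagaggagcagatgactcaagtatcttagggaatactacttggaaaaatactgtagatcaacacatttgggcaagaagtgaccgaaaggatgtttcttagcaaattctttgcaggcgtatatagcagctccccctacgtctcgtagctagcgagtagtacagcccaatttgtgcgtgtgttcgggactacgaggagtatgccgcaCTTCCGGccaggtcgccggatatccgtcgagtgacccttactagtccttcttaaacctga

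The 4 words searched are textbook binding words of regulators of respiratory chain genes or, for ACGTG, of the hypoxia response. GCATGCG, the core of the NRF1 motif, was found on either strand in 17.6% of the 74 promoters, 7.43% of the 9272 promoters of tested genes and 4.01% of all 27025 promoters. AAGATGG was found in 16.2% of the 74, 8.64% of tested genes and 7.28% of all. For CCGGAAG the shares were 23.0%, 21.1% and 9.93%, and for ACGTG they were 25.7%, 29.8% and 21.8%. CCGGAAG and AAGATGG can share their letters AAG, and a match is a description of letters in this window.

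FPKM summed to between 416560 and 490818 per library, and depth relative to the first miR-Ctrl library was 0.772 and 0.797 in the pair numbered 2, with 0.928 to 0.964 for the remaining 5. The number 2 libraries stood apart in both groups. Their 10 chondrocyte markers, such as Col2a1 and Acan, summed to 11720 and 11750 FPKM, against 23510 to 39090 FPKM in the other 6. Their 10 hypoxia-inducible genes summed to 876 FPKM in miR-Ctrl and 577 FPKM in miR-204, against 260 to 423 FPKM elsewhere. Ldha alone gave 663 and 428 FPKM of these sums. Of the 9 tested genes of this list, all 9 were above the mean of the rest of the group in number 2 of miR-Ctrl. In number 2 of miR-204, 7 of the 9 were, with Vegfa and Pdk1 below it. All 10 chondrocyte markers were expressed in the tested range, while skeletal muscle markers summed to at most 12.5 FPKM, with Myod1 and Ckm close to 0. The sums of adipocyte and macrophage markers were highest in number 2 of miR-Ctrl, at 31.8 and 10.8 FPKM. Fabp4 alone gave 31.6 FPKM of that adipocyte sum, while Adipoq at 0.152 FPKM and Cidec at 0 FPKM were not highest there. Only 1 of the 7 macrophage markers in the table averaged 1 FPKM or more. Osteoblast markers summed to 41.2 and 35.2 FPKM in number 2 against 14.5 to 20.1 FPKM elsewhere. Endothelial markers stayed at or below 2.88 FPKM and erythroid markers at or below 0.398 FPKM. With miR-204, 2 of 10 chondrocyte markers fell in the paired fit. They were Hapln1, whose best seed match was an 8mer, at −1.04 (adjusted p = 0.00136), and Comp, with no match, at −0.17 (0.0401). In the same fit 1 of 5 osteoblast markers fell (Alpl at −0.71, 0.0035) and 1 of 3 skeletal muscle markers rose (Acta1 at 0.94, 0.0173). Of all tested genes, 2.83% fell and 12.4% rose in it. With libraries centred on their medians, 3 of the 10 chondrocyte markers fell, Sox9 among them (paired adjusted p = 0.0217), where 4.32% of all tested genes fell. The part of these markers in the values of the chain was not tested. Fewer cells of a type and less RNA per cell cannot be told apart in these bulk samples.

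The respiratory chain genes made up a small part of the RNA. They held 2.16% ± 0.095 (SD, n = 4) of the summed FPKM in miR-Ctrl and 2.24% ± 0.080 in miR-204. The groups overlapped, with libraries from 2.07% to 2.28% in miR-Ctrl and from 2.13% to 2.32% in miR-204. Within each of the 4 numbers the share was higher with miR-204 (2.28% to 2.32%, 2.07% to 2.13%, 2.10% to 2.23% and 2.18% to 2.27%). By level, the highest genes were Cox4i1 at 339.3 FPKM, Atp5l at 323.9 FPKM and Uqcrh at 312.1 FPKM, as means over all libraries. Complex V had a median of 188.5 FPKM over its 15 genes, complex IV 161.3 FPKM and complex III 152.3 FPKM. Levels were lower in complex I, where the 29 supernumerary subunits had a median of 75.9 FPKM and the 7 core subunits 46.2 FPKM. The 7 complex I assembly factors lay at a median of 6.88 FPKM.

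**Figure D1:**
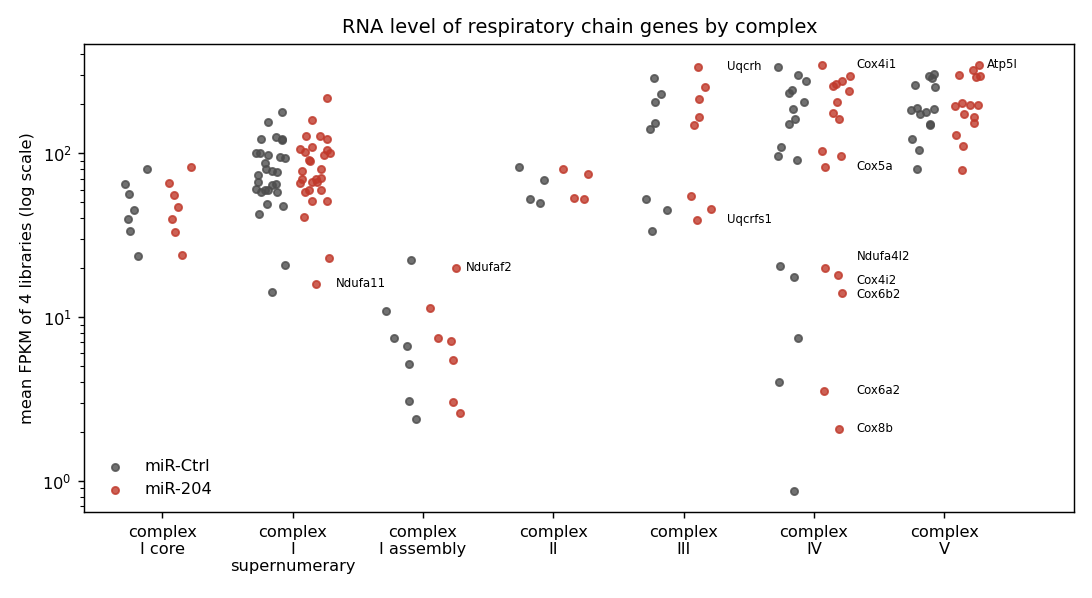
Each point is the mean FPKM of 4 libraries for 1 gene, on a log axis, with miR-Ctrl in grey and miR-204 in red, by complex. Means over all libraries run from 79.0 to 323.9 FPKM in complex V, while complex IV runs from Cox8b at 1.48 FPKM to Cox4i1 at 339.3 FPKM.

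With miR-204 the respiratory chain genes showed small differences, and Cox5a had the largest fall of the 89 in the paired fit. In the fit that ignored the replicate number, 0 of the 89 genes passed a Benjamini-Hochberg adjusted p of 0.05 (limma), where 0.207% of all tested genes did (0.0258% higher and 0.181% lower). At an unadjusted p under 0.05, 8 were higher and 2 lower, and 8.59% of all tested genes were so in either direction. When the replicate number entered the fit as a block, 12 of the 89 rose and 3 fell, where 12.4% of all tested genes rose and 2.83% fell, 15.2% in all. The share of higher calls is near that of all genes, and so is the share of lower calls.

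The paired calls depended on how libraries were scaled. After each library was centred on its own median, 5 of the 89 genes were called higher and 4 lower with the block, where 4.99% and 4.32% of all tested genes were (9.31% in all), and 8 of the 15 genes called before centring were still called. Over all tested genes the share of calls that were higher went from 81.4% to 53.6% with this centring. Quantile normalization with the block gave 5 higher and 3 lower, where 4.78% and 4.62% of all tested genes were (9.4% in all), and all 8 were among those 15. Leaving out both libraries of number 1, 3 or 4 left only Cox5a called with the block. Leaving out number 2 gave 28 higher and 3 lower, where 23.9% and 4.5% of all tested genes were called (28.4% in all).

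The median log2 fold change, on log2(FPKM + 1), was 0.07 over the 89 genes and 0.06 over all tested genes. Of the 89, 76 lay above 0, which is 85.4%, against 74.1% of all tested genes. With centred libraries 51 lay above 0, or 57.3%, against 50.1% of all tested genes. Among complexes the medians were 0.0078 for complex I core subunits, 0.074 for its supernumerary subunits, 0.066 for its assembly factors, 0.042 for complex II, 0.105 for complex III, 0.102 for complex IV and 0.088 for complex V. With centred libraries these medians came to −0.056, 0.0095, 0.0019, −0.022, 0.041, 0.038 and 0.024, so the sign for complex I core subunits and for complex II turned.

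**Figure D2:**
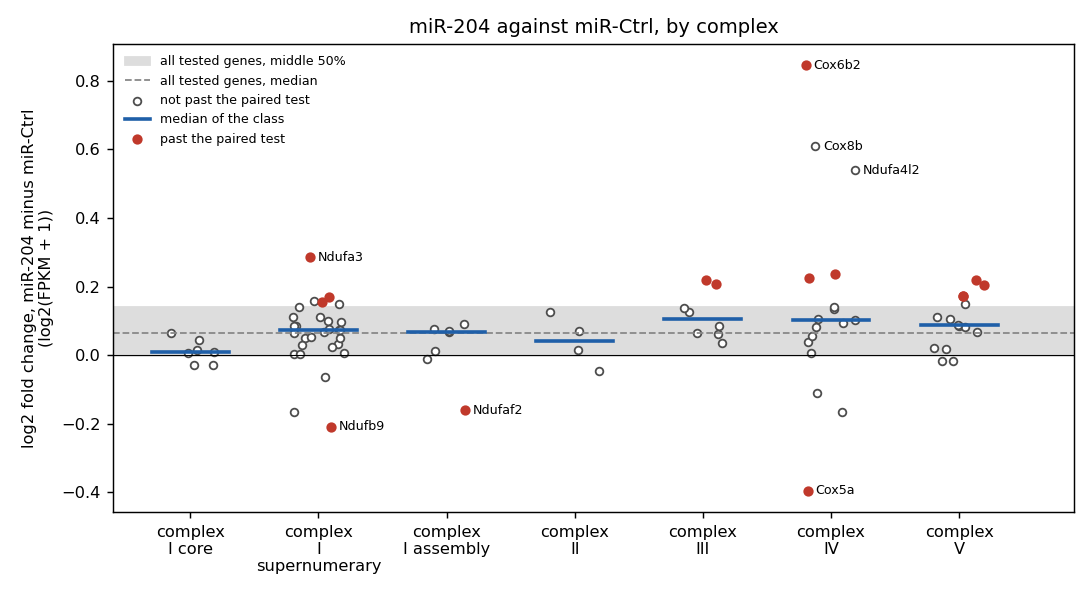
Each point is the log2 fold change of 1 gene on log2(FPKM + 1), miR-204 minus miR-Ctrl, with filled red points past the paired test, blue bars for the median of each class and the grey band for the middle of all tested genes. Most points sit inside the grey band, and Cox5a at −0.40 and Cox6b2 at 0.85 lie farthest below and above it.

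Within equal replicate numbers, the median difference over the 89 genes was 0.065 for number 1, 0.030 for number 2, 0.136 for number 3 and 0.079 for number 4. All 4 were above 0, and those of all tested genes were 0.052, 0.044, 0.097 and 0.069. In 37 of the 89 genes the difference had the same sign in all 4 pairs, 32 upward and 5 downward. That is 41.6%, against 41.3% of all tested genes, of which 33.9% went up and 7.44% down in all pairs. Values of the 2 groups did not overlap for 8 genes, 6 higher (Ndufa4, Cox7a2, Atp5sl, Ndufb7, Uqcrh and Atp5e) and 2 lower (Cox5a and Ndufb9), where 5.9% of all tested genes did not overlap (4.32% higher and 1.58% lower).

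Number 2 gave the lowest median differences in complexes II, III and IV and in the core and supernumerary subunits of complex I. In miR-Ctrl, 71 of the 89 genes were higher in number 2 than in the mean of the other 3 libraries, or 79.8%, against 67.0% of all tested genes. In miR-204 it was 55 of 89, or 61.8%, against 66.3%. The part of the chondrocyte, hypoxia and other marker sums of number 2 in these differences was not tested.

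**Figure D3:**
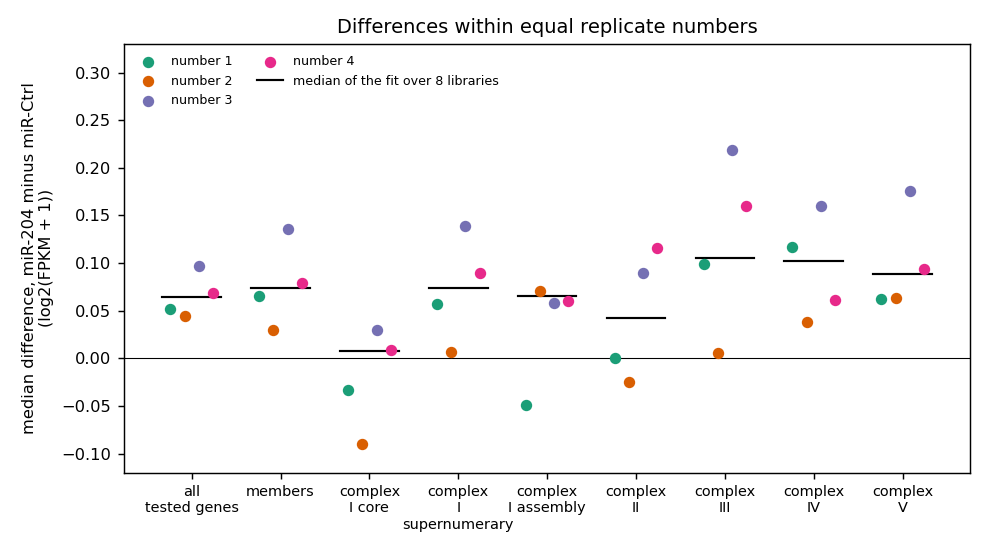
Points are medians of the log2(FPKM + 1) difference, miR-204 minus miR-Ctrl, within each replicate number, for all tested genes, for the 89 respiratory chain genes (members) and for each complex, with bars for the median of the fit over 8 libraries. Number 3 is highest in complexes III, IV and V, at 0.219, 0.160 and 0.176, and number 2 is lowest in complex III at 0.0056.

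The 7 core subunits of complex I, which hold its flavin and iron-sulfur centres, showed no call in any direction in either fit. Their log2 fold changes ran from −0.030 for Ndufv2 to 0.063 for Ndufs7. Ndufv2, which carries an iron-sulfur centre, measured 33.09, 35.03, 33.03 and 32.85 FPKM in miR-Ctrl 1 to 4 and 31.3, 32.2, 36.7 and 31.2 FPKM in miR-204 1 to 4. It was higher with miR-204 in number 3 and lower in the other pairs, and the groups overlapped (adjusted p = 0.72 paired, 0.947 unpaired). Ndufs7, which also carries an iron-sulfur centre, measured 47.4, 49.9, 42.2 and 41.5 FPKM in miR-Ctrl and 48.3, 49.8, 42.7 and 48.3 FPKM in miR-204. Its groups overlapped, and with centred libraries its log2 fold change came to −0.00057.

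Among the 29 supernumerary subunits of complex I, 3 rose and 1 fell in the paired fit. Over all tested genes, 12.4% rose and 2.83% fell in that fit. Ndufa3, a small subunit of the membrane arm and the highest of the class, measured 183.6, 207.6, 154.4 and 167.3 FPKM in miR-Ctrl 1 to 4 and 219.9, 231.5, 209.6 and 204.6 FPKM in miR-204. Every pair went up, and only the control library of number 2 lay above the lowest miR-204 library. The log2 fold change was 0.29 with a paired SE of 0.051 (adjusted p = 0.0203 paired, 0.454 unpaired).

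Ndufb9, a membrane arm subunit of the LYR protein family, went the other way. It measured 122.9, 125.3, 120.6 and 114.4 FPKM in miR-Ctrl and 105.4, 103.8, 106.7 and 101.3 FPKM in miR-204. All miR-204 libraries lay below all control libraries. Its log2 fold change was −0.21 with a paired SE of 0.035 (adjusted p = 0.0171 paired, 0.246 unpaired), and its 3′ UTR of 82 bases held no seed match.

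Ndufa12 had a log2 fold change of 0.15 (paired adjusted p = 0.0421) and Ndufc2 one of 0.17 (0.0481). Both are supernumerary subunits, and neither passed with centred libraries (adjusted p = 0.15 and 0.138). Ndufs5, named after its values were seen, was called lower only with centred libraries and the block, with an adjusted p of 0.0433 and 0.0769 without centring. It measured 102.3, 75.6, 58.6 and 74.3 FPKM in miR-Ctrl and 85.4, 67.0, 49.3 and 74.8 FPKM in miR-204. In 3 of the 4 pairs it was lower.

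Of the 7 complex I assembly factors, Ndufaf2 fell in the paired fit, where 2.83% of all tested genes fell. Ndufaf2 is an assembly factor related in sequence to Ndufa12. It measured 22.7, 23.9, 22.7 and 19.9 FPKM in miR-Ctrl and 20.5, 22.7, 19.3 and 17.1 FPKM in miR-204. Every pair went down, the libraries of number 4 were the lowest of each group, and the groups overlapped. The log2 fold change was −0.16 with a paired SE of 0.040 (adjusted p = 0.0448 paired, 0.678 unpaired, 0.0322 with centred libraries). It carries the 7mer-A1 shown above, and no other respiratory chain gene with this best match was called. Of the other assembly factors, none was called, and Ndufaf5 had the highest log2 fold change of the class at 0.091.

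Complex II has 4 subunits, all nuclear, and it also works in the tricarboxylic acid cycle. None was called in either fit. Sdhb, which holds the iron-sulfur centres, measured 89.0, 69.1, 82.1 and 88.5 FPKM in miR-Ctrl and 78.4, 66.4, 85.3 and 88.4 FPKM in miR-204. Its libraries of number 2 were the lowest of each group and the groups overlapped, with a log2 fold change of −0.047. Sdhd, a membrane anchor, was at 0.13 (paired adjusted p = 0.0614). Sdhc, the other anchor, has a 7mer-m8 and was at 0.015.

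All 8 complex III genes had log2 fold changes above 0, from 0.034 for Uqcrc2, a core protein, to 0.22 for Uqcrh. In the paired fit 2 rose. Over all tested genes 74.1% lay above 0 and 12.4% rose in the paired fit. With centred libraries 3 of the 8 came below 0, Uqcrc2 at −0.030, Uqcr10 at −0.0037 and Uqcrc1 at −0.00043. Uqcrh, the hinge protein beside the cytochrome c1 subunit, measured 301.3, 291.6, 297.4 and 262.9 FPKM in miR-Ctrl and 324.6, 349.0, 355.0 and 314.8 FPKM in miR-204. The groups did not overlap. The paired adjusted p was 0.0225, the unpaired one 0.427, and with centred libraries and the block it was 0.0629.

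Uqcrfs1, the Rieske iron-sulfur protein and the lowest of the complex, measured 31.3, 36.9, 33.8 and 32.2 FPKM in miR-Ctrl and 35.6, 41.8, 40.8 and 37.5 FPKM in miR-204. Each pair went up, and the control library of number 2 lay within the miR-204 range. The log2 fold change was 0.21 with a paired SE of 0.035 (adjusted p = 0.0169 paired, 0.483 unpaired, 0.0397 with centred libraries).

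Complex IV held both the most lowered and the most raised gene of the 89. In the paired fit 3 of its 17 genes rose (Cox6b2, Cox6c and Ndufa4) and 1 fell (Cox5a). Of all tested genes 12.4% rose and 2.83% fell in that fit. Cox5a encodes a nuclear subunit on the matrix side of the enzyme, present in all tissues. It measured 116.6, 105.6, 98.2 and 113.3 FPKM in miR-Ctrl and 92.3, 78.8, 74.6 and 83.2 FPKM in miR-204. All miR-204 libraries lay below all control libraries. The difference within numbers 1 to 4 was −0.33, −0.42, −0.39 and −0.44 on log2(FPKM + 1).

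Over all libraries the log2 fold change of Cox5a was −0.40, with an SE of 0.085 unpaired and 0.035 paired. The adjusted p was 0.195 unpaired, 0.00428 paired and 0.00188 paired with centred libraries. With both libraries of 1 number left out in turn, the paired adjusted p ran from 0.00384 to 0.0488, the latter without number 4. From the lowest fold change up, Cox5a was number 116 of 11612 tested genes, and number 53 of the 776 tested genes with an 8mer.

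The share of Cox5a among common complex IV subunits was lower with miR-204. Of the FPKM summed over 10 subunits of the common form of the enzyme (Cox4i1, Cox5a, Cox5b, Cox6a1, Cox6b1, Cox6c, Cox7a2, Cox7b, Cox7c and Cox8a), it made up 5.44% ± 0.40 (SD, n = 4) in miR-Ctrl and 4.00% ± 0.26 in miR-204. By library the share was 5.69%, 4.95%, 5.31% and 5.83% in miR-Ctrl and 4.26%, 3.78%, 3.79% and 4.19% in miR-204, with no overlap. It was the lowest of the 10 in 3 of the 4 miR-204 libraries and in 0 of the miR-Ctrl libraries. Cox6a1, another of the 10, was also lower in each pair. The share was computed after the fall of Cox5a had been seen, so it is no independent support.

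**Figure D4:**
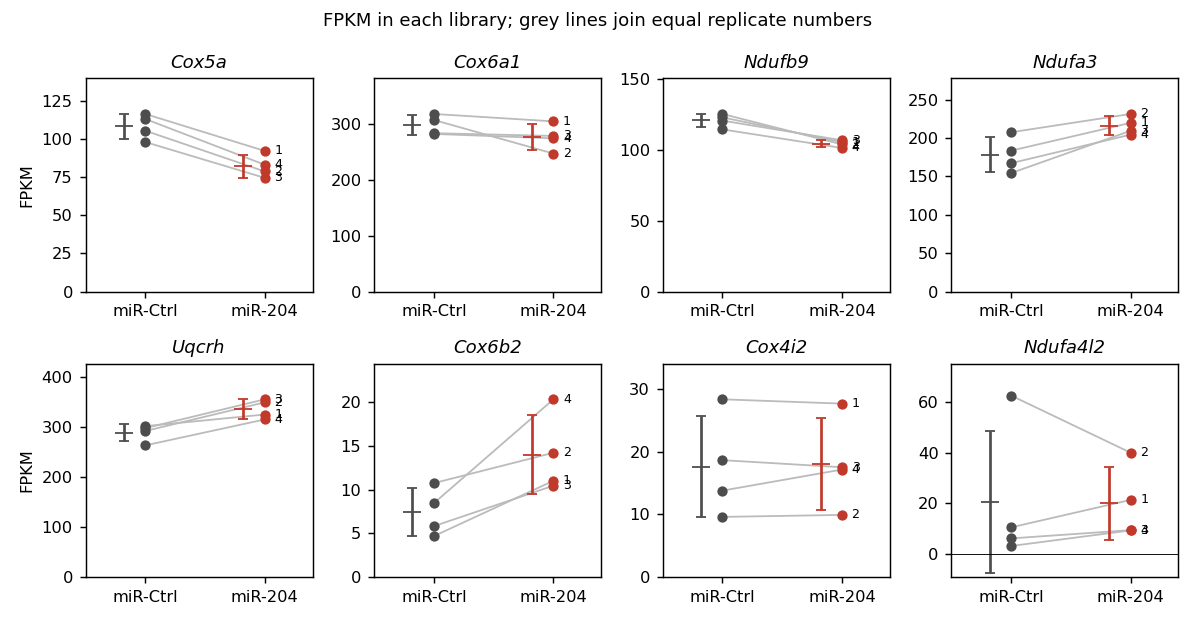
FPKM of 8 genes in each library, with miR-Ctrl in grey and miR-204 in red, grey lines joining equal replicate numbers, and the mean with SD of 4 libraries beside the points. Cox5a goes down in every pair, from 98.2 to 116.6 FPKM in miR-Ctrl to between 74.6 and 92.3 FPKM in miR-204, while Ndufa4l2 goes down in number 2 and up in the others.

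The other complex IV gene with a 7mer or 8mer was Cox6a1, the common form of a regulatory subunit. It measured 318.3, 307.5, 283.8 and 282.5 FPKM in miR-Ctrl and 305.0, 247.3, 278.9 and 274.6 FPKM in miR-204. Each pair was lower, by little in 3 and by more in number 2, and the groups overlapped. With a log2 fold change of −0.11 it was not called (adjusted p = 0.217 paired, 0.75 unpaired).

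By seed match, the 5 respiratory chain genes whose best match was a 7mer-A1 had a median log2 fold change of 0.0066, the 3 with a 7mer-m8 one of 0.015, and the 76 with no match one of 0.079. Over all tested genes the medians were 0.047, 0.026 and 0.078, and −0.0054 for the 776 with an 8mer. Of those 776, 136 fell and 31 rose in the paired fit, where 329 of all 11612 tested genes fell and 1436 rose. Ndufa11, a membrane arm subunit of complex I with a 7mer-m8, was at 0.15 and not called.

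**Figure D5:**
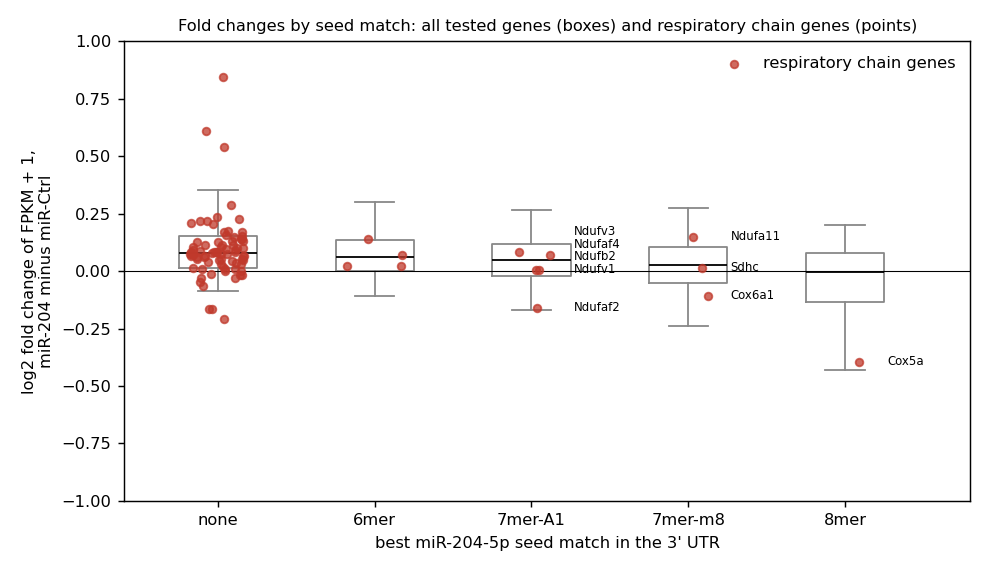
Boxes give the quartiles of the log2 fold change on log2(FPKM + 1) of all tested genes by their best seed match, with whiskers from percentile 5 to 95, and points are respiratory chain genes. Cox5a at −0.40 is the only point in the 8mer column, and Ndufaf2 is the lowest of the 7mer-A1 column at −0.16.

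Several complex IV subunits exist in a common form and in a form known from muscle, lung, testis or low oxygen. Cox6b2, known from testis, was the gene with the highest fold change of the 89. It measured 4.67, 10.7, 5.81 and 8.45 FPKM in miR-Ctrl and 11.01, 14.2, 10.5 and 20.3 FPKM in miR-204. Each pair went up, and only number 2 of miR-Ctrl reached into the miR-204 range. The log2 fold change was 0.85 with a paired SE of 0.13 (adjusted p = 0.0141 paired, 0.427 unpaired, 0.0169 with centred libraries).

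As a share of Cox6b1 and Cox6b2 together, Cox6b2 made up 3.06% ± 0.95 (SD, n = 4) in miR-Ctrl and 5.22% ± 1.79 in miR-204. The shares did not overlap, from 1.90% to 3.88% against 3.90% to 7.82%. The exact two-sided permutation test gave p = 0.0286, the smallest that 4 against 4 libraries allow, and 0.286 after adjustment over the 10 shares tested. Cox6b1, the common form, was at a log2 fold change of 0.13 (paired adjusted p = 0.0676).

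Ndufa4l2, a gene known to be induced by low oxygen and related to the complex IV subunit Ndufa4, varied most between libraries. It measured 10.6, 62.5, 3.22 and 6.22 FPKM in miR-Ctrl and 21.4, 39.99, 9.37 and 9.48 FPKM in miR-204. Number 2 was the highest of each group, and the difference was down within number 2 and up within the others. Its share of Ndufa4 and Ndufa4l2 together ran from 1.71% to 22.4% over the 8 libraries. The sum of the hypoxia-inducible list, most of it Ldha, was highest in number 2 of both groups too. The part of that sum in the level of Ndufa4l2 was not tested.

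Ndufa4 itself, once counted with complex I, measured 218.6, 215.9, 185.1 and 198.8 FPKM in miR-Ctrl and 246.9, 228.7, 249.8 and 237.8 FPKM in miR-204. The groups did not overlap, and the log2 fold change was 0.24 (adjusted p = 0.0471 paired, 0.378 unpaired, 0.0933 with centred libraries). Cox6c, a small membrane subunit, was at 0.22 (adjusted p = 0.0171 paired, 0.674 unpaired, 0.0415 with centred libraries).

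Cox4i2, known from lung and from cells in low oxygen, did not follow the pattern of Ndufa4l2. It measured 28.3, 9.57, 18.6 and 13.8 FPKM in miR-Ctrl and 27.7, 9.90, 17.5 and 17.1 FPKM in miR-204. Number 2 was the lowest of each group and number 1 the highest. Its share of Cox4i1 and Cox4i2 together was 5.02% ± 2.35 (SD, n = 4) in miR-Ctrl and 5.00% ± 2.04 in miR-204.

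The forms known from muscle stayed low. Cox6a2 was at a mean of 4.00 FPKM in miR-Ctrl and 3.55 FPKM in miR-204, with a log2 fold change of −0.17. Cox8b measured 1.14, 0.865, 0.408 and 1.078 FPKM in miR-Ctrl and 4.39, 1.88, 0.939 and 1.103 FPKM in miR-204, up in each pair and not called (paired adjusted p = 0.0788). Skeletal muscle markers summed to between 2.94 and 8.90 FPKM in miR-Ctrl and between 5.34 and 12.5 FPKM in miR-204, and their part in these values was not tested. Cox7a2, the common form beside the muscle form Cox7a1, was at 0.10 without overlap and without a call. Cox7a2l, a factor that joins complexes III and IV, held 65.9% of Cox7a2 and Cox7a2l together in miR-Ctrl and 66.5% in miR-204. Cox8a was at 0.093 and Cox4i1 at 0.039, or −0.025 with centred libraries.

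Of the 15 complex V genes 4 rose in the paired fit and none fell, where 12.4% of all tested genes rose and 2.83% fell. With centred libraries 1 of the 15 was still called higher, where 4.99% of all tested genes were. Atp5e, the epsilon subunit, measured 277.0, 267.2, 241.0 and 231.0 FPKM in miR-Ctrl and 319.8, 290.0, 289.1 and 281.7 FPKM in miR-204. The groups did not overlap. Its log2 fold change was 0.22 with a paired SE of 0.041 (adjusted p = 0.0226 paired, 0.483 unpaired, 0.0498 with centred libraries).

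The other 3 were Atp5j, coupling factor 6 of the stalk, and Atp5k and Atp5l, the small membrane subunits e and g. Atp5k measured 283.4, 267.8, 239.8 and 245.9 FPKM in miR-Ctrl and 295.9, 326.5, 293.8 and 278.0 FPKM in miR-204, up in each pair, with the first miR-Ctrl library above the lowest miR-204 library. The log2 fold changes were 0.17 for Atp5j, 0.20 for Atp5k and 0.17 for Atp5l, with paired adjusted p of 0.0384, 0.0421 and 0.0325. None of the 3 passed with centred libraries, at 0.133, 0.127 and 0.103. At the other end of the complex, Atp5f1, subunit b of the stalk, was at −0.019.

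The c ring of the ATP synthase is built from 1 mature protein encoded by 3 genes, Atp5g1, Atp5g2 and Atp5g3. Atp5g2 gave 46.9% ± 1.75 (SD, n = 4) of their summed FPKM in miR-Ctrl and 47.9% ± 1.11 in miR-204. Atp5g3 gave 29.2% ± 2.81 and 29.3% ± 1.89, and Atp5g1 gave 23.8% ± 2.23 and 22.8% ± 2.39. The exact permutation test, which ignored the replicate number, gave p = 0.371, 1.0 and 0.543. It found no difference in the mix of the 3 genes beyond the spread between libraries. Within the 4 numbers, the share was higher with miR-204 in 3 for Atp5g2, in 3 for Atp5g3 and in 1 for Atp5g1. Reads shared by these like genes, or with the pseudogenes that many respiratory chain genes have, may have been split by a rule that the sources used here do not give.

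Genes that serve the chain but lie outside the symbol rule were read from the same paired fit, in which 15.2% of all tested genes were called. Of 12 further chain genes, such as those for cytochrome c and its reductase partner, 1 rose and 1 fell in the paired fit. Gpd2, the mitochondrial glycerol-3-phosphate dehydrogenase, which feeds electrons from the cytosol into ubiquinone, was the one that fell. It measured 4.82, 7.55, 4.15 and 5.81 FPKM in miR-Ctrl and 3.95, 5.30, 3.71 and 4.63 FPKM in miR-204, lower in each pair with overlap between groups. The log2 fold change was −0.27 (adjusted p = 0.0315 paired, 0.7 unpaired), and its best seed match was an 8mer. The one that rose was 2010107E04Rik, the gene of a small ATP synthase subunit, at 0.22 (paired adjusted p = 0.0264, and 0.0573 with centred libraries).

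Among 28 assembly factors of complexes II to V, 3 rose in the paired fit and none fell. Cox20, which handles a mitochondrially encoded subunit of complex IV, went from 34.2 ± 1.57 FPKM (SD, n = 4) to 40.6 ± 1.29 FPKM. The log2 fold change was 0.24 (paired adjusted p = 0.0163). Coa5, needed to build complex IV, was at 0.22 (0.0183), and Sdhaf2, which attaches the flavin of complex II, at 0.16 (0.0453). The best seed match of Sdhaf2 was an 8mer, and its call was lost with centred libraries (adjusted p = 0.164). None of 8 further complex I assembly factors was called.

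The pathways around the chain were read against the 12.4% of all tested genes that rose in the paired fit. In that fit 3 of 13 coenzyme Q genes rose, among them Coq2 at 0.21 (adjusted p = 0.0379). Of 13 tricarboxylic acid cycle genes only Idh3a rose, at 0.19 (0.0356). Of 12 genes of mitochondrial biogenesis only Esrra, a nuclear receptor that drives respiratory chain genes, rose, at 0.28 (0.0181). Of 7 outer membrane genes Tomm20, an import receptor, rose at 0.15 (0.0391). None of 9 tested hypoxia-inducible genes was called. With centred libraries the coenzyme Q list had 0 calls, and Coq2 (adjusted p = 0.0864), Idh3a (0.102) and Tomm20 (0.175) lost theirs, while Esrra was still called (0.0364). Peo1, a biogenesis gene whose best seed match was an 8mer, was then called lower, at −0.18 (0.0363, and 0.0885 without centring). Unpaired, none of these genes passed.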

How the data were processed

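Per the labels' protocols, 8 libraries (4 per group) were made with a stranded mRNA kit and sequenced. The authors deposited 1 FPKM value per gene and library. The tools were TopHat and Cufflinks 2.2.1 with build mm10, per the submitters' processing notes. No source used here gives the TopHat version, how Cufflinks was run or which filters were set. A FPKM value falls for a gene when other genes take more fragments, and a level in FPKM compares genes per length. Read totals are unknown, and relative depth came from the steps between low values.

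The 11612 genes averaging 1 FPKM or more were fitted on log2 values after a pseudocount of 1, by limma 3.58.1 (R 4.3.3) with a trended prior, two-sided tests and Benjamini-Hochberg adjustment over all of them at 0.05. Fold changes on this scale understate those of low genes. The members of the symbol rule and the gene lists were chosen with earlier results of these data known. Replicate numbers paired the libraries: deviations from group means correlated within numbers 1 to 4 at r = 0.44, 0.816, 0.756 and 0.619 across genes. The labels give the number alone, so the pairing rests on the data. Paired values from limma with the number as a block stand beside unpaired ones. Other settings were centring or quantile normalization, with and without the block, a pseudocount of 0.1, no filter, a filter at 5 FPKM, and leaving libraries or pairs out. Quantile normalization with the block, and leaving out number 2 without it, were added after seeing the data.

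Named per class were the gene of the highest mean and those with the highest and lowest log2 fold change, all genes called in either fit, the isoform genes and, of each pathway list, the highest gene and up to 3 with the smallest paired p. Other genes (with a seed match, without overlap, or called only after centring) were named after their values were seen. Of the pathway lists only some of the genes that the rule names are described, and 1 chain gene is not reported here. The seed matches came from the GENCODE M21 annotation, on the same assembly as mm10, with the longest 3′ UTR of each gene. The authors' gene models may have been others. Both fits were tested on simulated data with the 11612 genes and known changes. For 1.2-fold changes the unpaired fit recovered 0% and the paired fit 28.4%. For 1.5-fold changes they recovered 38.8% and 82.1%. The paired fit called 3 unchanged genes and the unpaired fit 0. The simulated data kept the pair effects of these libraries, which favours the paired fit. They held no shift between groups common to all genes, so they cannot show how library scaling bears on the paired calls.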

Additional observations from a re-analysis of the deposited data

Results flagged for a closer look

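In 72 groups of 4 libraries (36 named respiratory chain genes in each of miR-Ctrl and miR-204), the highest and the lowest value were compared with the rest by Dixon's ratio, which chance passes in about 1 of 20 groups. In 2 groups 1 library stood apart, and both times it was number 2 of miR-Ctrl. Ndufv2, a core subunit of complex I, was at 35.0 FPKM there, against 32.9 to 33.1 FPKM in the other miR-Ctrl libraries. Ndufa4l2 was at 62.5 FPKM there, against 3.22 to 10.6 FPKM. Ndufv3, named after its values were seen, was not among the 36 genes compared. It was at 113.4 FPKM in the same library, against 76.0 to 79.3 FPKM in the other miR-Ctrl libraries.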

How the results depend on the processing

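The replicate block moved all tested genes from 3 higher and 21 lower to 1436 and 329, and the respiratory chain genes from 0 and 0 to 12 and 3. With the block and centred libraries the counts were 579 and 502 over all and 5 and 4 in the chain, and with the block and quantile normalization 555 and 536, and 5 and 3. With the block and number 1, 2, 3 or 4 left out, calls over all genes were 89, 2781, 236 and 42 higher and 83, 522, 149 and 48 lower, and in the chain from 0 to 28 higher and from 1 to 3 lower. Without the block, centring gave 8 and 55 over all genes, quantile normalization 7 and 66, and no filter 0 and 9. Leaving out 1 library gave 0 to 4 higher and 1 to 16 lower. The chain stayed at 0 calls in each setting without the block.

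The median over the chain was 0.074. It fell to 0.0095 with centring and 0.0050 with quantile normalization, paired or not. Under centring the class medians were −0.056 (complex I core), 0.0095 (supernumerary), 0.0019 (assembly), 0.038 (complex IV) and 0.024 (complex V). Under quantile normalization they were −0.054, 0.0068, −0.0087 and 0.037 for the first 4. Leaving out 1 library gave −0.017 (without miR-204 2) to 0.023 for complex I core, 0.030 (miR-Ctrl 4) to 0.096 for supernumerary, 0.033 (miR-Ctrl 2) to 0.067 for assembly, 0.019 (miR-Ctrl 4) to 0.090 (miR-Ctrl 2) for complex II, 0.068 (miR-Ctrl 3) to 0.143 for complex III, 0.056 (miR-Ctrl 3) to 0.136 for complex IV and 0.066 (miR-Ctrl 3) to 0.152 (miR-Ctrl 2) for complex V. The cause was not tested.

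Genes near 0 changed sign with centring or quantile normalization, with or without the block, respectively Ndufs7 (−0.00057, −0.0032), Uqcrc2 (−0.030, −0.034), Cox4i1 (−0.025, −0.018), Cox4i2 (−0.0093, −0.014) and Atp5g1 (−0.043, −0.044). With 1 library left out the values ran from −0.13 to 0.037 for Sdhb, −0.033 to 0.0021 for Atp5f1, −0.18 to 0.31 for Cox4i2 and −0.049 to 0.089 for Atp5g1. With the block and 1 number left out they ran from −0.026 to 0.10 for Cox4i2 and −0.017 to 0.051 for Atp5g1. Relative depth of 0.772 and 0.797 makes low values of number 2 the least precise, and differences of about 1.2-fold were below what the unpaired fit recovered on simulated data.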

Other observations

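Ribosomal protein genes form another large group of short, highly expressed transcripts. Of 78 cytoplasmic ribosomal protein genes 1 rose in the paired limma fit and none fell, where 12.4% of all tested genes rose and 2.83% fell. Once libraries were centred 0 of the 78 were called, where 9.31% of all tested genes were. Their median log2 fold change was 0.076, against 0.064 over all tested genes. All pairs were above 0 in 47 of them, or 60.3%, against 33.9% of all tested genes. The 75 mitochondrial ribosomal protein genes, whose products build the ribosomes that translate the mitochondrially encoded subunits, had a median of 0.046. In the paired fit 1 of the 75 was higher and 1 lower, against the same 12.4% and 2.83% of all tested genes. In number 2 of miR-204, 74 of the 78 cytoplasmic genes were above the mean of the other 3 libraries, or 94.9%, against 66.3% of all tested genes. In miR-Ctrl it was 58 of 78, or 74.4%, against 67.0%.

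Seed matches before the 3′ UTR, in the 5′ UTR or coding part of the same transcripts, were found in a few respiratory chain genes and are given as letters found. Cox5a had a 7mer-m8 there beside its 8mer in the 3′ UTR. Ndufb9 had a 7mer-A1 there. Atp5o, the stalk subunit OSCP, had an 8mer there and a log2 fold change of −0.016 (adjusted p = 0.814 paired), and Ndufaf5 had an 8mer there and 0.091 (0.323 paired). Uqcrfs1 had a 7mer-A1 there and rose in the paired fit, and Uqcrc2 and Atp5f1 had the same match and were at 0.034 and −0.019.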
